A study of Rattus norvegicus with 13 samples.

Results

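Axon guidance genes encode the secreted and membrane-bound cues, and their receptors, by which growing axons and migrating cells are steered. Genes were taken by symbol from the array annotation: semaphorins, plexins, neuropilins, ephrins, Eph receptors, Slits, Robos, netrins and Unc5 receptors. The rule gave 55 of the 14506 genes measured, of which 28 are ligands and 25 are receptors. The other 2, Unc50 and Unc5cl, matched the symbol pattern but are not netrin receptors of the Unc5 family. RNA of cultured cells from adult rats of the Sprague Dawley strain was hybridised to Affymetrix Rat Gene 1.0 ST arrays. Skin-derived precursors (SKPs), dermal cells that grow in culture and have properties of neural crest precursors, came from dorsal trunk, ventral trunk or facial skin, with 3 isolates a region. Mesenchymal stromal cells (MSCs), the other adult cell type, were represented by 4 isolates. The labels give no genetic change or treatment for any group, and all cells had been passaged 2 times. The source tissue of the MSCs, the culture media and the number of animals behind each isolate are not given in the labels.

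Class 3 semaphorins are secreted and act largely through neuropilins joined to plexins of the A type, whereas Sema3e binds plexin D1 directly. The other semaphorins are held in the membrane, and several of them bind plexins without a neuropilin. Ephrins and Eph receptors sit on facing cells and can signal in both directions, the A ephrins through a lipid anchor and the B ephrins through a transmembrane stem. Slits signal through Robos and are best known as repellents, and netrins attract through Dcc and neogenin and repel through Unc5 receptors. Outside the nervous system the same families guide neural crest cells and growing vessels and act in skin and hair follicles. The comparisons below ask which of these genes set SKPs apart from MSCs, and whether SKPs of different skin regions, whose dermis has different embryonic origins, differ in them.

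Levels are log2 values, so a difference of 1 is a 2-fold change, and levels of different genes were not compared with each other. The check of identity bore out the SKP label in part. Of 10 dermal papilla and SKP markers, 9 lay above the low-level mark in each group, and the list's mean level was 7.41 for dorsal, 7.83 for facial and 8.15 for ventral SKPs, against 6.57 in MSCs. Not all members of that list were higher in SKPs. Prom1 lay below the mark in all groups, Snai2 was highest in MSCs (8.93 against 7.50 to 8.10 in SKPs), Nes was lower in dorsal (4.31) and facial SKPs (4.79) than in MSCs (5.55), and Vcan was lower in dorsal SKPs (10.16) than in MSCs (10.79). That mark is the 90th percentile of the olfactory receptor genes of a group, between 3.48 and 3.59. All 9 mesenchymal stromal markers lay above it in all 4 groups, so they did not set MSCs apart. The mean of 10 smooth muscle and pericyte markers was higher in MSCs, at 8.16, 8.25, 9.50 and 9.69 against 5.44 to 5.88 on SKP arrays. All 10 lay above the mark in each group. Rgs5 was higher in ventral SKPs (5.77) than in MSCs (4.61), and Cspg4 was at 8.90 to 9.19 in SKPs against 9.20. The others were higher in MSCs than in every SKP region. Macrophage and leukocyte markers varied among isolates of the same region. Their mean ran from 4.20 to 7.38 on dorsal, 6.46 to 10.13 on facial, 5.21 to 5.58 on ventral and 4.19 to 4.78 on MSC arrays, and 18, 18, 17 and 16 of the 18 markers lay above the mark. Dorsal array 3 stood apart from the other dorsal arrays, with a dermal papilla and SKP mean of 6.60 against 7.79 and 7.83. These are bulk cultures, in which fewer cells of a type and less RNA per cell cannot be told apart.

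The promoter stretches of 5 genes on which the results turn are shown, each the 250 bases before the start of the gene, 5′ to 3′ along the gene's strand. They come from RefSeq, build GRCr8, which holds an entry for 46 of the 55 genes. Sema6d (chr3:132337106-132337355, plus strand) and Sema7a (chr8:67244068-67244317, plus strand) are shown because they were far higher in SKPs, and Sema3e (chr4:21510375-21510624, minus strand) because it was far lower. Sema3d (chr4:23460972-23461221, minus strand) and Ephb1 (chr8:111823760-111824009, minus strand) had the largest differences between facial and ventral SKPs in either direction among genes with an entry. Capitals mark matches, on either strand, to any of 6 short motifs.
Sema6d: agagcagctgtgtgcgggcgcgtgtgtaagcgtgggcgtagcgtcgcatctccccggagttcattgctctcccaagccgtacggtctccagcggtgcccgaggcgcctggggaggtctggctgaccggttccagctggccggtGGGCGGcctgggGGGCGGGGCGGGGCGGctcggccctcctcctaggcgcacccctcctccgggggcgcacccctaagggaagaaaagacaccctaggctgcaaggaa
Sema7a: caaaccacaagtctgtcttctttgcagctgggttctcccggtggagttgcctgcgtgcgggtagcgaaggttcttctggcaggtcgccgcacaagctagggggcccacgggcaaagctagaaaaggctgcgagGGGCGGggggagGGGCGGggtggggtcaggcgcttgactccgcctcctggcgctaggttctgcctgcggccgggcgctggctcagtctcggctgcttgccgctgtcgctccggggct
Sema3e: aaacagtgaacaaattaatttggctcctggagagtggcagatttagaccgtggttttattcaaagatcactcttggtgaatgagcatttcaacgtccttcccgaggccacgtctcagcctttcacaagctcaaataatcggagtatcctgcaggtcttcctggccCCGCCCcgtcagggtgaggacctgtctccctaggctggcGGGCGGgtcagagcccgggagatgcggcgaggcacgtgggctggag
Sema3d: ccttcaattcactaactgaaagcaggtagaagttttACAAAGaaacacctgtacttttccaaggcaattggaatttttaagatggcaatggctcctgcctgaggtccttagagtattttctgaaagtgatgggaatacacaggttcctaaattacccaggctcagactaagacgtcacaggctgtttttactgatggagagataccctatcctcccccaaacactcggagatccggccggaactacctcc
Ephb1: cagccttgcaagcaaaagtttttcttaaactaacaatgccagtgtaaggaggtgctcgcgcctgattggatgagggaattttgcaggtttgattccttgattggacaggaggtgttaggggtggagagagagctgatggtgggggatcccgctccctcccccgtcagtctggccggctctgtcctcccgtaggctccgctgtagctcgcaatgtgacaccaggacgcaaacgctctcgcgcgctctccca

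The motifs were the GC box GGGCGG, the TATA box TATAAA, the SOX motif CTTTGT, the TCF/LEF motif CTTTGAT, the AP-1 motif TGANTCA and the CRE motif TGACGTCA. Neighbouring GC boxes can overlap, as they do in Sema6d. Sema6d had 4 GC boxes, Sema7a had 2 and Sema3e had 2, one of them on the other strand. The Sema3d stretch held 1 match to the SOX motif, read on the opposite strand, and in the Ephb1 stretch none of the motifs was found. The GC content was 70.4% for Sema6d, 67.6% for Sema7a, 55.6% for Sema3e, 44.8% for Sema3d and 56.4% for Ephb1, against a median of 52.0% over 27457 promoters. A GC box was present in 24 of the 46 and in 32.4% of all promoters. A SOX match was present in 7 of the 46 and in 16.0% of all. The other motifs were rarer, with the TATA box in 0 of the 46 and 13.1% of all, and the AP-1, TCF/LEF and CRE motifs in 1 of the 46 each against 6.36%, 3.18% and 1.7% of all. A match is a description of the letters and not a binding site.

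Most guidance ligands and receptors lay above the low-level mark in both cell types, and many were higher in SKPs. Of the 55 genes, 50 lay above the mark in all 4 groups, a count for which no share over all genes was taken. Epha1, Plxnb3 and Robo3 lay below it in every group, Sema4f did so in facial SKPs and Unc5cl in ventral SKPs. In at least 1 group 52 of the 55 genes lay above the highest of the marks, as did 11727 of all 14506 genes. Some of the 50 lay only a little above the mark, such as Robo4 (group means 3.70 to 4.04) and Slit1 (3.89 to 4.28). Against MSCs, with SKPs taken as the mean of the 3 regions, 27 of the 55 genes passed the test (limma, adjusted p under 0.05), which is 49.1% of them and compares with 25.3% of all genes. Of these, 22 rose in SKPs, where 13.1% of all genes rose, and 5 fell, where 12.2% of all genes fell. The median difference was 0.30 over the 55 genes and -0.017 over all genes. In 12 of the 55 every SKP array lay above every MSC array (6.60% of all genes), in 3 every SKP array lay below (6.0%), and together that is 15 genes against 12.6% of all. A change of at least 2 in size was called for 10 of the 55 and for 3.18% of all genes. Among ligands 14 of 28 rose and 4 fell, and among receptors 8 of 25 rose and 1 fell. With the mean of the leukocyte markers of each array as a covariate 20 of the 55 were called, and the calls of Efna2, Efna5, Ephb1, Ntn5, Plxna2, Plxna3, Sema4f and Sema4g were lost (adjusted p from 0.0516 to 0.492). The difference of Plxna3 went from -0.91 to -0.35, and that of the others moved less, with Ephb1 at 1.07 in both fits and changes from 0.63 to 0.52 for Ntn5, from -0.71 to -0.61 for Sema4f and from -0.62 to -0.70 for Sema4g. The mean of 5 melanocyte markers also differed between SKP and MSC arrays without overlap, at 4.60 to 6.10 against 4.01 to 4.44. Of the 5, 4 lay above the low-level mark in dorsal, 3 in facial, 4 in ventral SKPs and 4 in MSCs, and Tyr lay below it in every group. Kit had group means of 5.50 to 7.50 in SKPs against 3.90 in MSCs, Mitf of 8.26 to 8.57 against 6.15 and Mlana of 5.46 to 7.59 against 5.07. Tyrp1 (3.50 to 3.69 against 3.80) and Tyr (2.17 to 2.50 against 2.50) were not higher in SKPs. Neuronal markers overlapped, at means over 10 markers of 4.12 to 4.98 on SKP and 3.89 to 4.58 on MSC arrays. The part of these markers in the result was not tested.

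**Figure D1:**
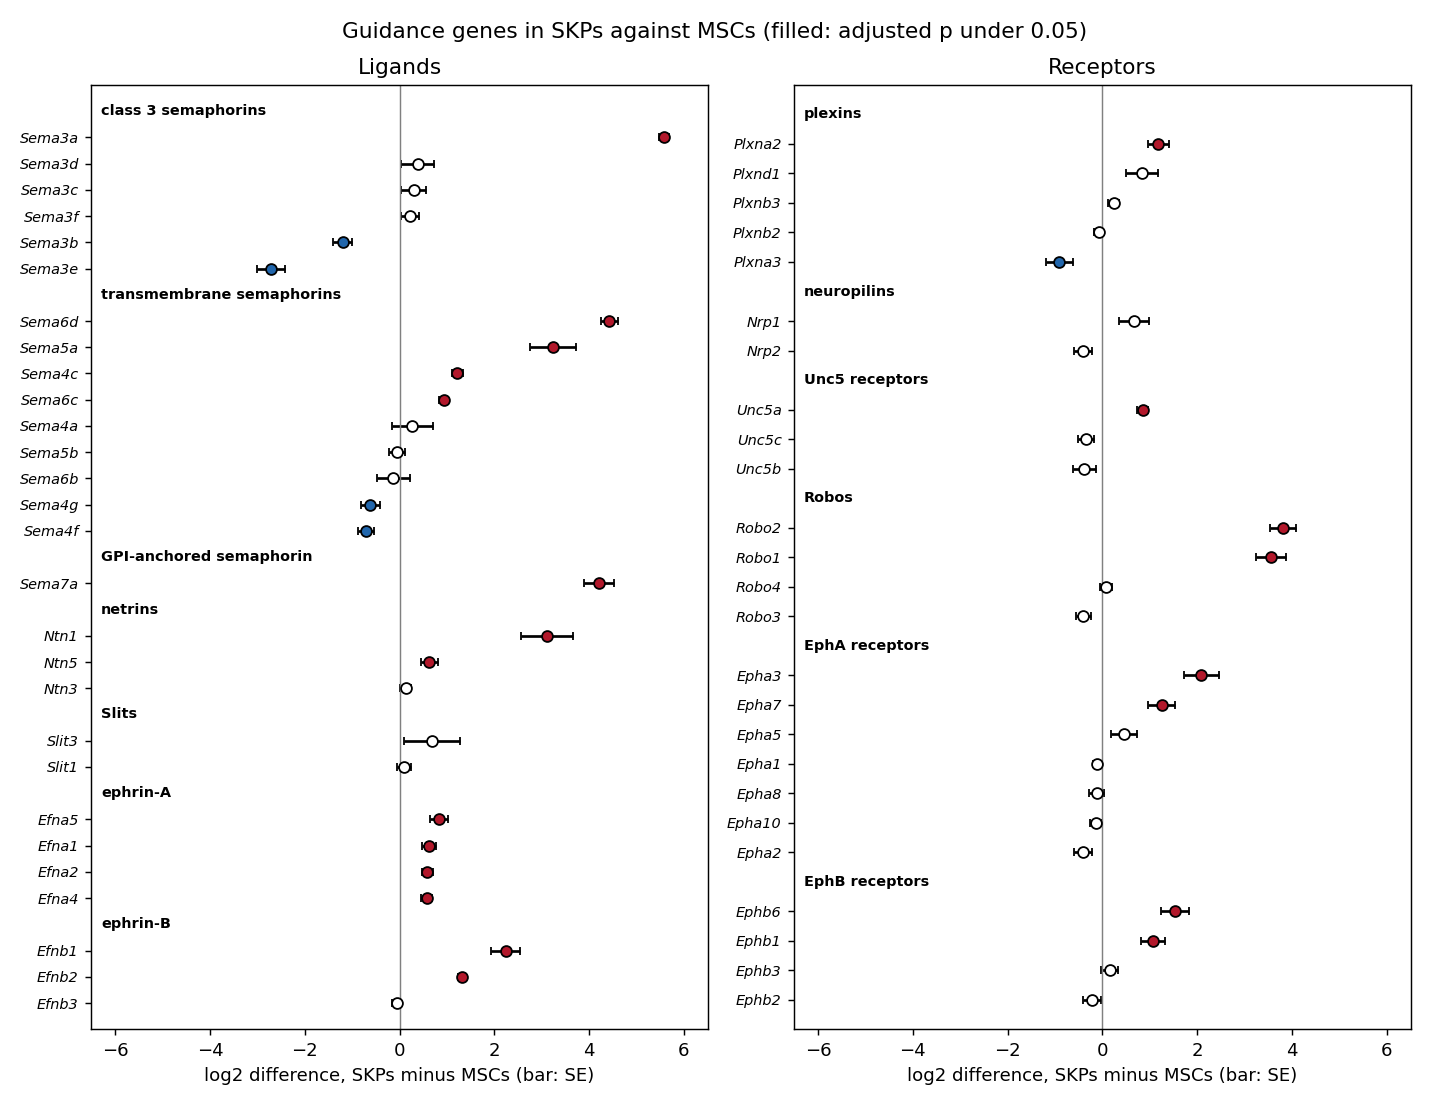
Log2 difference between SKPs (mean of 3 regions, 9 arrays) and MSCs (4 arrays) for each guidance gene, ligands and receptors in separate panels, with bars for the SE of the fit and filled points for genes with an adjusted p under 0.05. Sema3a lies farthest to the right at 5.58 and Sema3e farthest to the left at -2.71.

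Sema3a, a secreted semaphorin that repels axons and neural crest cells through neuropilin 1, had the largest difference. Its level was 11.35, 11.44 and 11.02 on the dorsal arrays, 11.84, 12.03 and 11.84 on the facial arrays, 11.90, 12.09 and 11.97 on the ventral arrays and 6.39, 6.15, 6.11 and 5.90 on the MSC arrays. The 9 SKP arrays thus lay far above the 4 MSC arrays, and spread little among themselves. Sema3a was 47.9-fold higher in SKPs (log2 difference 5.58, SE 0.10, limma adjusted p = 3.69e-11). Sema3e, the ligand of plexin D1, went the other way. Its level was 4.05, 4.35 and 5.05 for dorsal, 5.55, 4.84 and 4.65 for facial and 5.06, 5.28 and 4.91 for ventral SKPs, against 8.02, 7.78, 8.0 and 6.47 in MSCs. The lowest MSC array was still above the highest SKP array, and Sema3e was 6.54-fold lower in SKPs (log2 difference -2.71, SE 0.29, limma adjusted p = 4.46e-05). Sema3b, another secreted ligand of neuropilins, fell with it, from a mean of 7.21 ± 0.14 (SD, n = 4) in MSCs to 6.30 ± 0.64 for dorsal, 5.51 ± 0.20 for facial and 6.24 ± 0.33 in ventral SKPs (SD, n = 3 each; difference -1.20, limma adjusted p = 0.000906). Of the 6 class 3 semaphorins 1 rose and 2 fell. Sema3c, Sema3d and Sema3f did not pass the test over the mean of the regions, with differences of 0.30, 0.38 and 0.22.

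Among the 9 transmembrane semaphorins 4 rose and 2 fell. Sema6d, a ligand of plexin A1 in the developing heart, was at 8.63, 8.79 and 8.13 for dorsal, 9.23, 9.19 and 9.10 for facial and 8.71, 9.25 and 8.86 for ventral SKPs, against 3.81, 4.62, 4.85 and 4.49 in MSCs. All SKP arrays were above all MSC arrays, by 21.6-fold on average (log2 difference 4.43, SE 0.18, limma adjusted p = 2.96e-08). Sema5a, which carries thrombospondin repeats and can attract or repel axons, was at 8.92, 8.83 and 9.72 for dorsal, 8.64, 9.07 and 9.36 for facial and 9.23, 8.79 and 9.22 in ventral SKPs. Its MSC arrays were spread widely, at 5.05, 4.36, 7.74 and 6.26, all below the SKP arrays (difference 3.24, SE 0.48, limma adjusted p = 0.000438). Sema4c, a ligand of plexin B2, rose by 1.22 and Sema6c by 0.93. Sema4f and Sema4g fell, with differences of -0.71 (adjusted p = 0.00981) and -0.62 (adjusted p = 0.037). The Sema4g call was lost under 10 of 23 alternative settings, among them leaving out facial array 1 or 3, ventral array 1 or 3, or MSC array 1, 3 or 4 (adjusted p from 0.054 to 0.126), and its arrays overlapped. Sema4a, Sema5b and Sema6b did not pass, with differences of 0.27, -0.06 and -0.13.

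Sema7a, the semaphorin held by a lipid anchor, which binds plexin C1 and integrins, was at 11.67, 11.39 and 11.47 on facial arrays, at 11.54, 11.78 and 11.84 on ventral arrays and at 6.62, 6.48, 7.29 and 6.81 in MSCs. The dorsal arrays were lower and more scattered, at 10.76, 10.13 and 8.53, with dorsal array 3 the lowest SKP array. Sema7a was 18.5-fold higher in SKPs (log2 difference 4.21, SE 0.32, limma adjusted p = 2.32e-06).

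Of the 5 plexins measured 2 were called (40.0%, against 25.3% of all genes). Plxna2 rose, by 1.18 (SE 0.22, limma adjusted p = 0.00212), and Plxna3 fell, with a difference of -0.91 (adjusted p = 0.0327). The Plxna3 call was lost under 10 of 23 alternatives, among them the leukocyte covariate (difference -0.35, adjusted p = 0.492) and leaving out dorsal array 2, facial array 1 or 3, ventral array 1 or 3, or MSC array 1, 2 or 3 (adjusted p from 0.0506 to 0.0943). Dorsal array 3, at 7.85, lay above all 4 MSC arrays in Plxna3, while the other SKP arrays ran from 5.26 to 6.40. Plxnb2, the receptor of Sema4c, had means between 9.92 and 10.11 in the 4 groups (difference -0.08). Plxnd1, the receptor of Sema3e, was at 5.23, 5.62, 7.19 and 7.22 in MSCs and between 6.45 and 7.76 in SKPs, a difference of 0.83 that did not pass (adjusted p = 0.098). Nrp1 and Nrp2, the neuropilins, did not pass over the mean of the regions either, at 0.67 and -0.42.

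**Figure D2:**
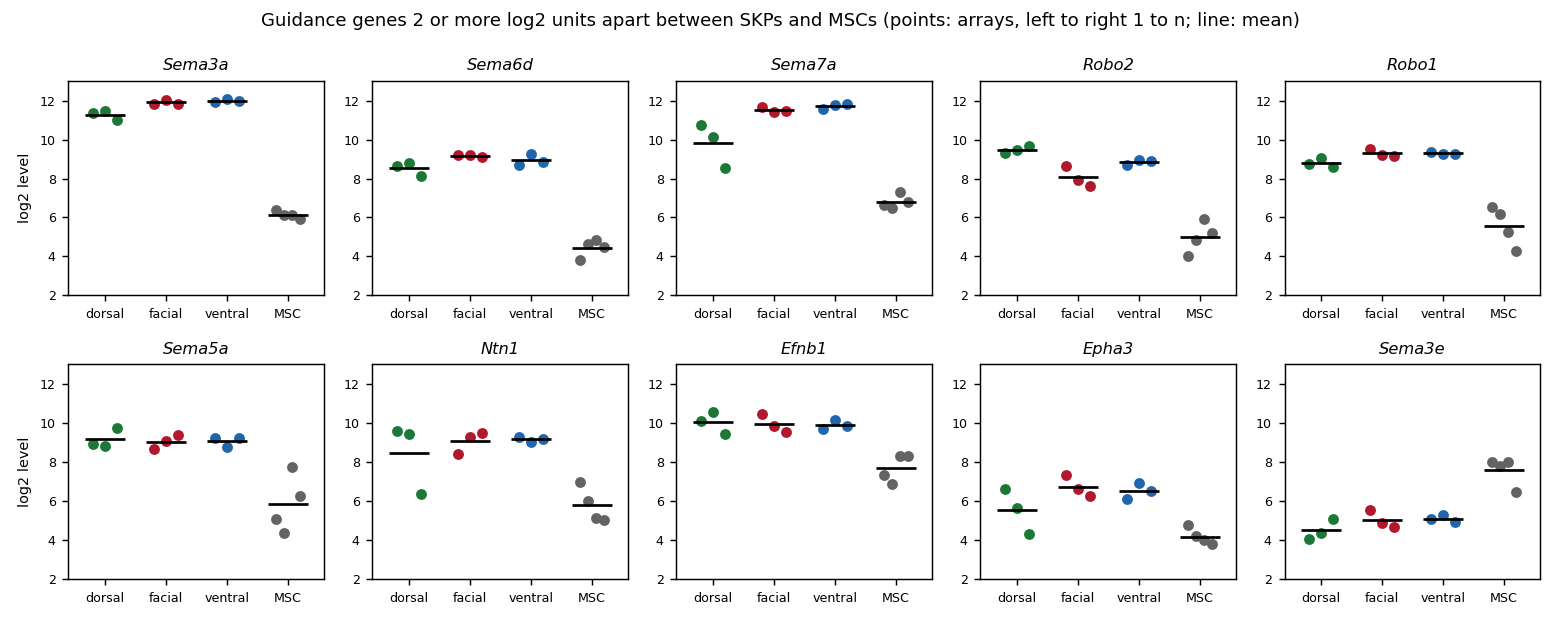
Log2 level on each array of the guidance genes called with a difference of at least 2 between SKPs and MSCs, 1 panel a gene, with points for arrays and lines for the group mean. In the panels of Sema3a, Sema6d and Sema7a all SKP arrays lie above all MSC arrays, and in that of Sema3e all lie below.

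Ntn1, the best-studied netrin, was high in all SKP regions except on 1 array. It was at 9.58, 9.42 and 6.35 for dorsal, 8.43, 9.29 and 9.50 for facial and 9.28, 9.02 and 9.19 for ventral SKPs, against 6.99, 6.01, 5.13 and 5.02 in MSCs. The low value was that of dorsal array 3, which fell within the MSC range, and all other SKP arrays lay above the MSC arrays. Ntn1 was 8.63-fold higher in SKPs (log2 difference 3.11, SE 0.55, limma adjusted p = 0.00143). Ntn5 rose by 0.63 (adjusted p = 0.0212), with its high levels in facial SKPs, a call lost without MSC array 1, 2 or 3 (adjusted p from 0.0534 to 0.0664), and Ntn3 did not pass (0.13). Of the 3 Unc5 receptors Unc5a rose, by 0.85 (SE 0.11, limma adjusted p = 0.000146). Unc5b and Unc5c did not pass, at -0.38 and -0.34. The netrin receptors outside the rule did not follow Ntn1: Neo1 (neogenin) fell by 0.83 (adjusted p = 0.0138) and Dcc did not pass (0.21, adjusted p = 0.28).

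Robo1 and Robo2, the receptors through which Slits repel, were both higher in SKPs. Robo1 was at 8.74, 9.06 and 8.61 for dorsal, 9.51, 9.23 and 9.14 for facial and 9.34, 9.26 and 9.27 in ventral SKPs, and at 6.54, 6.19, 5.26 and 4.27 in MSCs. Robo2 was at 9.31, 9.45 and 9.69 for dorsal, 8.66, 7.92 and 7.62 for facial and 8.71, 8.97 and 8.89 in ventral SKPs, and at 4.03, 4.86, 5.90 and 5.21 in MSCs. For both genes all SKP arrays lay above all MSC arrays. The difference was 3.56 for Robo1 (11.8-fold, SE 0.32, limma adjusted p = 1.05e-05) and 3.81 for Robo2 (14.0-fold, SE 0.28, limma adjusted p = 2.19e-06). Robo4, the Robo of endothelial cells, and Robo3 did not pass (0.08 and -0.40). The Slits measured did not pass either. Slit3 was at 7.68 to 9.32 on SKP arrays, and MSC arrays 1 and 2, at 6.73 and 5.83, lay below and arrays 3 and 4, at 9.69 and 8.75, within or above that range (difference 0.68). Slit1 stood near the low-level mark, between 3.67 and 4.85 on all arrays (difference 0.09). The same pairs of MSC arrays differed in the mean of the smooth muscle and pericyte markers given above. The part of those markers in the result was not tested.

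Most ephrins were higher in SKPs. All 4 of the A ephrins measured rose over the mean of the regions, and 2 of the 3 B ephrins did. Among A ephrins Efna5 rose by 0.84, Efna1 by 0.62, Efna2 by 0.59 and Efna4 by 0.57 (limma adjusted p from 0.00259 to 0.0101). SKP and MSC arrays overlapped for Efna5, Efna1 and Efna2, and Efna5 differed by -0.10 in dorsal SKPs. The Efna1 call was lost with the replicate block (limma adjusted p = 0.0503). Efnb1, whose loss disturbs the skull sutures in craniofrontonasal syndrome, was at 10.08, 10.58 and 9.42 for dorsal, 10.44, 9.82 and 9.51 for facial and 9.70, 10.17 and 9.86 for ventral SKPs, against 7.33, 6.88, 8.31 and 8.32 in MSCs. The groups did not overlap, and Efnb1 was 4.74-fold higher in SKPs (log2 difference 2.24, SE 0.30, limma adjusted p = 0.000193). Efnb2, known from arteries, rose by 1.32 (SE 0.09, limma adjusted p = 1.41e-06), and Efnb3 did not pass (-0.06).

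Of the Eph receptors 2 of 7 EphA and 2 of 4 EphB genes rose over the mean of the regions, and the share of EphA genes called, 28.6%, was near the 25.3% of all genes. Epha3, a receptor for A ephrins, was at 6.62, 5.66 and 4.32 for dorsal, 7.34, 6.62 and 6.24 for facial and 6.10, 6.93 and 6.51 for ventral SKPs, against 4.75, 4.20, 3.97 and 3.77 in MSCs. Dorsal array 3 again lay within the MSC range and the other SKP arrays above it (difference 2.09, 4.26-fold, SE 0.36, limma adjusted p = 0.00123). Ephb6, an Eph receptor without kinase activity, rose by 1.53 (SE 0.30, limma adjusted p = 0.00258) with no overlap between SKP and MSC arrays. Epha7 rose by 1.25 and Ephb1 by 1.07, both with the highest levels in facial SKPs. Epha2 passed against MSCs in dorsal SKPs alone of the 3 regions, at -0.94 (adjusted p = 0.0173), a call lost without dorsal array 3 (-0.68, adjusted p = 0.0624).

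Each region was then set against the MSCs by itself. The 3 comparisons share the 4 MSC arrays, so their counts are not independent of each other. In dorsal SKPs 18 of the 55 genes were called, 14 higher and 4 lower, or 32.7% against 16.5% of all genes (8.77% higher and 7.76% lower). In facial SKPs it was 26, 22 higher and 4 lower, or 47.3% against 19.0% (9.47% and 9.58%), and in ventral SKPs 24, 20 higher and 4 lower, or 43.6% against 24.4% (13% and 11.4%). With the mean of the leukocyte markers as a covariate the facial count dropped to 12, all higher, and among the calls lost were Ntn1 (1.57, adjusted p = 0.49), Efnb1 (2.41, adjusted p = 0.0608), Sema3e (-2.05, adjusted p = 0.0914), Sema5a (3.55, adjusted p = 0.086) and Epha3 (1.69, adjusted p = 0.249). The medians over the 55 genes were 0.12 for dorsal, 0.47 for facial and 0.21 in ventral SKPs. In all 3 regions 14 genes were called (25.5%, against 9.49% of all genes), in 2 regions 9 (16.4% against 7.11%), in 1 region 8 (14.5% against 17.3%) and in none 24 (43.6% against 66.1%), counts that rest on the same MSC arrays. Sema3a differed from MSCs by 5.13 for dorsal, 5.77 for facial and 5.85 in ventral SKPs, Sema6d by 4.07, 4.73 and 4.49, and Robo1 by 3.24, 3.73 and 3.73. Efnb1 differed by 2.32, 2.22 and 2.20, with differences between regions of -0.10 to 0.12 (SE 0.41). Sema3f, a class 3 semaphorin that acts through neuropilin 2, was called in facial SKPs alone (0.77, adjusted p = 0.044), a call lost under 13 alternatives, among them leaving out any 1 facial or ventral array or MSC array 1, 2 or 4 (adjusted p from 0.0618 to 0.131). The difference between facial and ventral SKPs was 0.94 (adjusted p = 0.0527).

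Over the 3 comparisons between regions 13 of the 55 genes were called, a count for which no share over all genes was taken. Between facial and dorsal SKPs 6 were called, all higher in facial SKPs, or 10.9% of the 55 against 1.25% of all genes (0.793% higher and 0.462% lower). Between facial and ventral SKPs 5 were called, 3 higher in facial and 2 lower, or 9.09% against 6.60% of all genes (2.25% and 4.36%). That count was 14 with array weights (16.8% of all genes called), 8 with only the arrays compared (13.3%) and 8 without dorsal array 3 (9.76%). Between dorsal and ventral SKPs 10 were called, all lower in dorsal SKPs, or 18.2% against 6.11% of all genes (2.35% higher and 3.76% lower). These comparisons share arrays pairwise.

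Sema3d, a secreted semaphorin that guides neural crest and endothelial cells, had the largest difference between regions. It was at 10.74, 11.58 and 10.52 in ventral SKPs, at 7.81, 8.85 and 9.13 in dorsal SKPs and at 6.70, 6.49 and 6.19 in facial SKPs, with MSCs at 7.65, 7.89, 9.55 and 8.06. The 3 regions did not overlap, and the MSC arrays overlapped the dorsal ones only. Ventral SKPs exceeded facial SKPs 22.5-fold (facial minus ventral -4.49, SE 0.48, limma adjusted p = 0.000432) and dorsal SKPs 5.10-fold (dorsal minus ventral -2.35, SE 0.48, adjusted p = 0.0151). The difference between facial and dorsal SKPs, -2.14, did not pass (adjusted p = 0.0569). Against MSCs Sema3d rose in ventral SKPs (2.66, adjusted p = 0.00114) and fell in facial SKPs (-1.83, adjusted p = 0.0145), and the dorsal difference was 0.31. The dorsal to ventral call was lost without ventral array 1 (adjusted p = 0.0502) or 2 (0.0609). The call of the fall in facial SKPs was lost without facial array 3 (adjusted p = 0.0578) and with the leukocyte covariate (-0.78, adjusted p = 0.615), and the facial to ventral difference was kept (-3.70, adjusted p = 0.0147).

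Sema4c was also highest in ventral SKPs, at 8.81, 8.55 and 8.68 against 7.11, 7.48 and 7.79 for dorsal, 7.37, 7.50 and 7.25 in facial SKPs and 6.49, 6.58, 6.82 and 6.57 in MSCs. The difference from ventral SKPs was -1.31 in facial (SE 0.16, limma adjusted p = 0.000913) and -1.22 in dorsal SKPs (adjusted p = 0.00152). Its second probe set gave means of 7.74 ± 0.10 in ventral, 5.48 ± 0.42 in dorsal and 5.51 ± 0.11 in facial SKPs (SD, n = 3) and 5.32 ± 0.34 in MSCs (n = 4), so both put ventral SKPs on top. On the second probe set dorsal and facial SKPs lay closer to MSCs than on the first. The reported difference from MSCs was 0.84 in dorsal and 0.76 in facial SKPs, both called. With the mean of probe sets the facial call was lost (0.48, limma adjusted p = 0.0521).

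In facial SKPs 3 genes stood above the trunk regions. Ephb1, a receptor for B ephrins, was at 5.50, 7.12 and 6.64 in facial SKPs against 4.25, 3.84 and 3.76 for dorsal, 4.26, 4.09 and 4.00 in ventral SKPs and 3.55, 3.40, 3.86 and 4.23 in MSCs. All facial arrays lay above the other 10 arrays, and the difference was 2.47 from dorsal (SE 0.34, limma adjusted p = 0.0047) and 2.30 from ventral SKPs (adjusted p = 0.00268). Epha7, a receptor for A ephrins, was at 6.32, 7.41 and 6.44 in facial, 4.66, 4.67 and 3.81 for dorsal, 5.33, 5.05 and 5.34 in ventral SKPs and 4.77, 3.93, 4.66 and 3.46 in MSCs. It was higher by 2.34 than in dorsal (SE 0.38, limma adjusted p = 0.0113) and by 1.48 than in ventral SKPs (adjusted p = 0.0389). The second of these calls was lost under 9 alternatives, among them leaving out any 1 of the 3 facial or 3 ventral arrays (adjusted p from 0.0516 to 0.124) or MSC array 2 (adjusted p = 0.0511). Ntn5, a netrin, was at 4.98, 5.92 and 5.58 in facial SKPs, and at 4.21, 3.76 and 3.43 for dorsal, 3.42, 3.82 and 3.69 in ventral SKPs and 3.64, 3.53, 3.62 and 3.92 in MSCs. The other groups thus lay near the low-level mark, and facial SKPs were 3.24-fold above dorsal (log2 difference 1.70, adjusted p = 0.00507) and 3.61-fold above ventral SKPs (1.85, adjusted p = 0.00136).

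**Figure D3:**
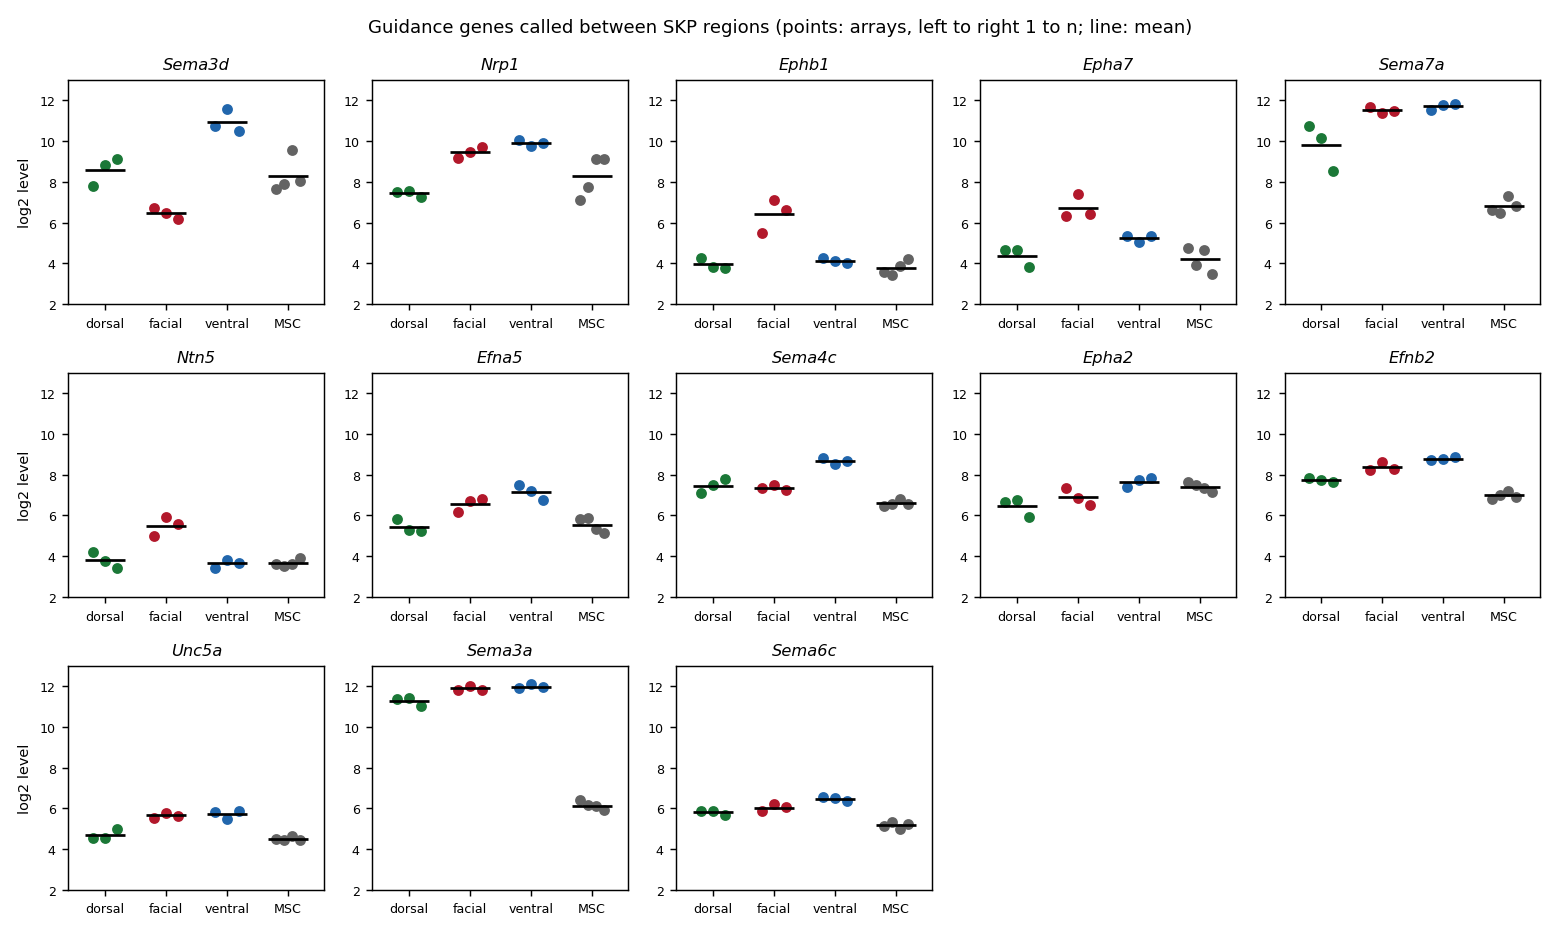
Log2 level on each array of the guidance genes called between SKP regions, 1 panel a gene, with points for arrays and lines for the group mean. Sema3d is highest on the 3 ventral arrays (10.52 to 11.58), and Ephb1, Epha7 and Ntn5 are highest on the 3 facial arrays.

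Leukocyte markers were higher in facial SKPs too, so the arrays were set side by side. The part of leukocytes in the differences was not tested, and the genes and arrays below were picked after their values were seen. Facial array 2 had the lowest leukocyte mean of its region, 6.46, and the highest Ephb1, Epha7 and Ntn5 of all arrays. Dorsal array 1, at a leukocyte mean of 7.38, had Ephb1 at 4.25, Epha7 at 4.66 and Ntn5 at 4.21. Facial array 3, at 10.13, had the highest Sema4a, a semaphorin of immune cells, at 8.74, against 6.64 and 6.01 on the other facial arrays and 4.81 to 6.48 on the trunk SKP arrays. Sema4a itself passed no test in the reported fit. In each comparison with MSCs 1 alternative called it (limma adjusted p from 0.00887 to 0.0455). Over the alternatives its difference ran from -0.92 to 0.45 for all SKPs and from -0.92 to 1.97 for facial SKPs. With the leukocyte mean as a covariate none of the 6 facial to dorsal calls was kept (limma), although 10 of the 55 genes had an unadjusted p under 0.05, and the differences were 2.46 for Ephb1 (adjusted p = 0.0892), 2.39 for Epha7 (0.139) and 1.54 for Ntn5 (0.129). Against ventral SKPs Ephb1 (2.30, adjusted p = 0.045) and Ntn5 (1.69, adjusted p = 0.037) kept their calls and Epha7 did not (1.53, adjusted p = 0.204). Leaving out dorsal and facial arrays 3 together left 1 facial to dorsal call, Unc5a, with Ephb1 at 2.26 (adjusted p = 0.06), Epha7 at 2.20 (0.0643) and Ntn5 at 1.47 (0.0581).

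**Figure D4:**
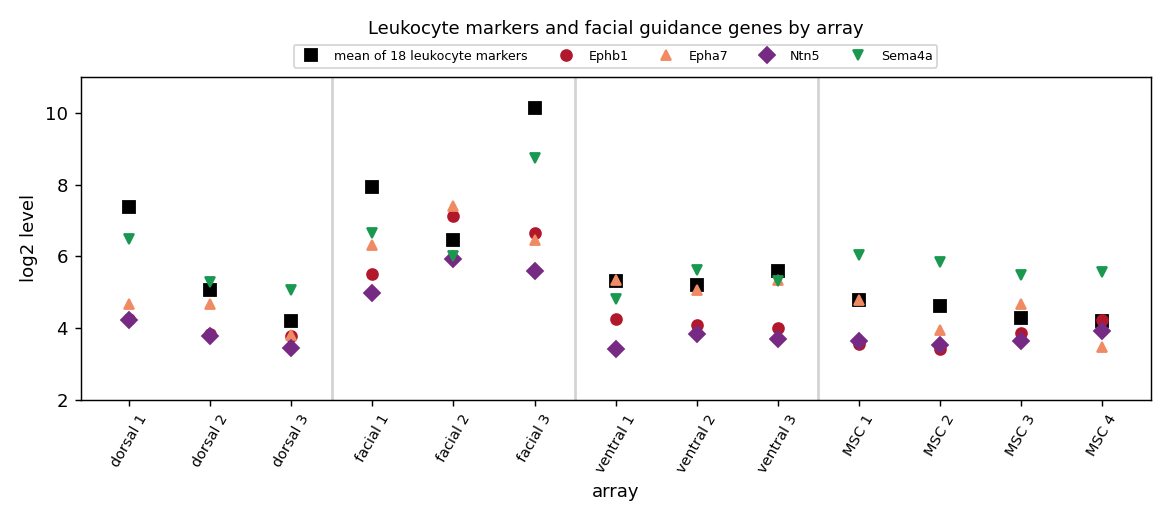
Mean log2 level of 18 macrophage and leukocyte markers on each of the 13 arrays, beside the log2 levels of Ephb1, Epha7, Ntn5 and Sema4a. Leukocyte markers (10.13) and Sema4a (8.74) are highest on facial array 3, and Ephb1, Epha7 and Ntn5 are highest on facial array 2.

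Dorsal SKPs were the low region for 10 genes when set against ventral SKPs. Nrp1, the receptor of Sema3a and a co-receptor for VEGF, was at 7.51, 7.53 and 7.26 in dorsal SKPs, 9.18, 9.46 and 9.70 in facial SKPs and 10.07, 9.76 and 9.92 in ventral SKPs. The 3 dorsal arrays lay below the 6 others, and MSC arrays took both levels, at 7.11, 7.76, 9.10 and 9.10. Nrp1 was 5.59-fold lower in dorsal than in ventral SKPs (log2 difference -2.48, SE 0.43, limma adjusted p = 0.00795) and 4.05-fold lower than in facial SKPs (facial minus dorsal 2.02, adjusted p = 0.0489). The latter call was lost under 16 alternatives, including the loss of any 1 SKP array (adjusted p from 0.0736 to 0.167). Efna5, a repellent ligand for EphA receptors, was at 5.82, 5.31 and 5.23 for dorsal, 6.19, 6.73 and 6.79 for facial and 7.50, 7.22 and 6.74 in ventral SKPs, with MSCs at 5.81, 5.89, 5.36 and 5.13. Dorsal arrays lay within the range of the MSC arrays, and dorsal SKPs lay below ventral SKPs (-1.70, SE 0.26, limma adjusted p = 0.00411). Sema7a differed by -1.91 (adjusted p = 0.0232), with dorsal arrays 1 to 3 at 10.76, 10.13 and 8.53 against at least 11.54 in ventral SKPs. That call was lost without any 1 ventral array (adjusted p from 0.0675 to 0.0895) and kept without dorsal array 3.

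The other genes lower in dorsal than in ventral SKPs differed less. They were Epha2 (-1.18, adjusted p = 0.0188), Efnb2 (-1.04, adjusted p = 0.000926), Unc5a (-1.0, adjusted p = 0.00312), Sema3a (-0.72, adjusted p = 0.0132) and Sema6c (-0.65, adjusted p = 0.0113), beside Sema4c and Sema3d. Efnb2 and Unc5a were lower in dorsal than in facial SKPs as well, by 0.64 (facial minus dorsal, adjusted p = 0.0303) and 0.94 (adjusted p = 0.00964). The Efnb2 call between facial and dorsal SKPs was lost under 13 alternatives, among them leaving out dorsal array 2 or 3, facial array 2 or 3, MSC array 2 or any 1 ventral array (adjusted p from 0.0502 to 0.0852). Unc5a had means of 4.72 ± 0.26 for dorsal, 5.65 ± 0.13 for facial and 5.71 ± 0.22 in ventral SKPs (SD, n = 3) and 4.51 ± 0.09 in MSCs (n = 4). Without ventral array 2 the dorsal to ventral count was 6, and the calls of Epha2 (adjusted p = 0.0637), Sema3a (0.0556), Sema3d (0.0609) and Sema7a (0.0718) were lost. Sema6c was lost without ventral array 1 (adjusted p = 0.0548), and Epha2 (0.0837) and Sema3a (0.053) without ventral array 3. Endothelial markers (endothelial cells carry Nrp1 and Efnb2) were higher on ventral arrays, with a mean of 5.57, 5.01 and 5.59 over 9 markers against 3.93 to 4.51 on all other arrays. Of these 9, 5 lay above the low-level mark in dorsal, 8 in facial, 9 in ventral SKPs and 6 in MSCs, and their part in the result was not tested. Egfl7 was lower in ventral SKPs (6.19) than in MSCs (6.90). The other endothelial markers were highest in ventral SKPs, Tek (4.24 against 3.99 in MSCs) and Cldn5 (4.91 against 4.54 to 4.61 in the other groups) by little. The mean of 9 Schwann and glial markers was higher on ventral arrays too. It was 5.92, 6.01 and 6.08 there against 4.96 to 5.66 on all other arrays. All 9 lay above the low-level mark in each group. Egr2 set ventral SKPs furthest apart, at a mean of 10.49 against 5.78 to 7.26 in the other groups. Sox10, S100b, Erbb3 and Mbp were highest in ventral SKPs by less. Gfap (3.73) and Mag (3.58) were at their lowest there, and Pmp22 (10.42 against 10.87) and Prx (5.16 against 5.78) lay below MSCs. The part of these markers was not tested either.

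Ligands and receptors that are known to bind each other could be set side by side as differences from MSCs. Sema3a rose in all 3 regions, while its receptor Nrp1 differed by -0.83 in dorsal (adjusted p = 0.202), 1.18 in facial (adjusted p = 0.0631) and 1.65 in ventral SKPs (adjusted p = 0.011) and Plxna2 by 1.11, 1.03 and 1.39, all called. The dorsal call of Plxna2 was lost without dorsal array 1 or 2 or MSC array 4 (adjusted p from 0.0509 to 0.0774), and the facial one without any 1 facial array or MSC array 1 or 4 (adjusted p from 0.0521 to 0.0903) and with the leukocyte covariate (0.48, adjusted p = 0.647). Efna5 differed by -0.10, 1.02 and 1.60, and its receptor Epha3 by 1.36, 2.56 and 2.35, with the facial and ventral differences of both called and the dorsal ones not. The facial call of Efna5 was lost without facial array 3 (adjusted p = 0.0566) and with the leukocyte covariate (0.60, adjusted p = 0.49). Efnb2 rose by 0.76, 1.41 and 1.80, and its receptor Ephb1 differed by 0.19, 2.66 and 0.36, called in facial SKPs. Ntn1 rose by 2.67, 3.29 and 3.37, and its receptor Unc5a differed by 0.20, 1.14 and 1.20, not called in dorsal SKPs. The dorsal call of Ntn1 was lost without dorsal array 1 or 2 or MSC array 3 or 4 (adjusted p from 0.0541 to 0.0914). Other receptors of the same families went the other way. Unc5b differed by -0.05, -0.49 and -0.59 and Unc5c by -0.23, -0.31 and -0.48, none of them called. Plxna3, a plexin of the A type, differed by -0.23, -0.99 and -1.51, called in ventral SKPs. The pairs are textbook pairs, and binding was not measured.

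In the reported fit 24 of the 55 genes were called in none of the 7 comparisons. That count has no share over all genes beside it. Some of the 24, such as Sema4a and Nrp2, were called under alternatives. The 24 genes had differences from -0.73 to 1.88. They were the ligands Sema3c, Sema4a, Sema5b, Sema6b, Ntn3, Slit1, Slit3 and Efnb3, the receptors Plxnb2, Plxnb3, Plxnd1, Nrp2, Unc5b, Unc5c, Robo3, Robo4, Epha1, Epha5, Epha8, Epha10, Ephb2 and Ephb3, and Unc50 and Unc5cl. Some had narrow ranges. Plxnb2 had differences from -0.19 to 0.17 and Unc50, a protein of the nuclear membrane, from -0.09 to 0.07. Others varied more among isolates. Sema4a, with an SD of 1.43 in facial SKPs, had the difference of 1.88, between facial and ventral SKPs (adjusted p = 0.0777). Unc5b, a netrin receptor of vessels, was at 10.47 on dorsal array 3 against 8.98 and 8.99 on the others. Epha5 was at 5.65 on the same array against 4.28 and 3.89.

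Of the other genes of the pathway, a list of 99 co-receptors, adaptors, kinases and regulators of GTPases and actin, 85 were measured. Between SKPs and MSCs 15 rose and 22 fell, or 43.5% against 25.3% of all genes, with a median of -0.11. The largest differences were falls in p21-activated kinases, which act below Rac and Cdc42. Pak1 went from 9.16 ± 0.36 in MSCs (SD, n = 4) to 4.72 ± 0.30 for dorsal, 5.0 ± 0.63 for facial and 5.57 ± 0.53 in ventral SKPs (SD, n = 3; difference -4.07, SE 0.25, limma adjusted p = 6.1e-07), and Pak3 fell by 3.20 (adjusted p = 1.97e-06). The adaptor Grb10 (-2.07), the exchange factor Kalrn (-1.77) and the small GTPase Rras2 (-1.46) fell too. Sdc1, a heparan sulphate proteoglycan, rose by 2.32, Limk1, the kinase that inactivates cofilin, by 2.30 and the Src family kinase Fyn by 1.72 (limma adjusted p from 7.49e-06 to 0.000381). Between regions the calls in this list were near or below the share of all genes. Between facial and ventral SKPs 5 of the 85 were called, all lower in facial (5.88% against 6.60% of all genes), and between dorsal and ventral SKPs 1 was higher and 4 lower in dorsal (5.88% against 6.11%). Between facial and dorsal SKPs limma called 0 of the 85, with 15 at an unadjusted p under 0.05, against 1.25% of all genes called.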

How the data were processed

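The deposited values were log2 expression values per probe set, made by the authors with RMA in Affymetrix Expression Console (core genes), per the labels and the submitters' processing notes, which also name limma. RMA subtracts background, quantile-normalises and summarises probes, so values near background are compressed. They were used as deposited, with array medians from 4.91 to 5.01. Of 29215 probe sets, 15310 with exactly 1 gene symbol gave 14506 genes. The probe set with the highest mean over the 13 arrays stood for a gene with several (527 genes, Sema4c among the 55). Group means were fitted over 13 arrays with limma 3.58.1 in R 4.3.3 for 7 comparisons, two-sided, with Benjamini-Hochberg adjustment over all genes and a threshold of 0.05. P-values measure the spread between isolates. The number of arrays limits the precision. The script was tested on simulated data.

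The genes, the lists and the tests were chosen with earlier results of these data known. All genes of the rule are named. Values on every array are given for those called with a difference of at least 2 between SKPs and MSCs or at least 1.5 between regions, and for some others, which were chosen after their values were seen, as were the genes set side by side by array. Alternatives were the replicate block, limma-trend, robust eBayes, array weights, the mean of probe sets, all probe sets, a filter on low levels, equal array medians, the arrays compared alone, a leukocyte covariate, each array left out and, chosen after seeing the data, dorsal and facial arrays 3 left out together.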

Additional observations from a re-analysis of the deposited data

Results flagged for a closer look

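One MSC array lay far from the others in Sema3e. MSC array 4 was at 6.47, against 7.78 to 8.02 on the other 3, past the limit of Dixon's test. It was the only 1 of 55 genes tested in this way in MSCs, where chance flags about 1 in 20 groups.

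The effect against MSCs differed between SKP regions for 13 of the 55 genes, in 21 comparisons of 2 regions, each tested as the difference itself (limma, adjusted p under 0.05). No share over all genes was taken for the 13. By comparison, the share called was 18.2% against 6.11% of all genes for dorsal and ventral SKPs. It was 10.9% against 1.25% for facial and dorsal SKPs, and 9.09%, near the 6.60% of all genes, for facial and ventral SKPs. In dorsal minus ventral SKPs the differences were -2.48 for Nrp1, -2.35 for Sema3d, -1.91 for Sema7a, -1.70 for Efna5, -1.22 for Sema4c, -1.18 for Epha2, -1.04 for Efnb2, -1.0 for Unc5a, -0.72 for Sema3a and -0.65 for Sema6c. In facial minus dorsal SKPs they were 0.64 for Efnb2, 0.94 for Unc5a, 1.70 for Ntn5, 2.02 for Nrp1, 2.34 for Epha7 and 2.47 for Ephb1. In facial minus ventral SKPs they were -4.49 for Sema3d, -1.31 for Sema4c, 1.48 for Epha7, 1.85 for Ntn5 and 2.30 for Ephb1. The last comparison shares its facial arrays with the one before it.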

How the results depend on the processing

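The named results counted here are the 84 calls with a difference of at least 1 in size. None of them reversed under any alternative, 61 kept their calls throughout, and of 1999 values 79 lost a call. Calls with smaller differences are not in these counts. Among those, Sema4g in SKPs against MSCs was lost under 10 alternatives and Sema3f in facial SKPs against MSCs under 13. The leukocyte covariate cost most calls (18 of the named results): it left 12 genes called between facial SKPs and MSCs (26 as reported) and 0 between facial and dorsal SKPs (6 as reported), the latter with 10 at an unadjusted p under 0.05. Fitting only the arrays compared left 1 facial to dorsal call and gave 8 facial to ventral ones (5 as reported), and array weights gave 14 of the latter. Leaving out dorsal and facial arrays 3 left 1 facial to dorsal call. The cause was not tested. With each array left out in turn the counts ran from 24 to 29 for SKPs against MSCs, 13 to 19 for dorsal, 21 to 29 for facial and 20 to 28 for ventral SKPs against MSCs, 4 to 8 for facial against dorsal and for facial against ventral (8 without dorsal array 3), 6 to 12 for dorsal against ventral, and 30 to 42 for the other pathway genes (37 as reported). The fit with the replicate block called 26, 14, 25, 23, 4, 4 and 9 genes in these comparisons and 29 pathway genes. The labels do not say whether the replicate numbers pair the arrays. Deviations of same-numbered arrays correlated from -0.12 to 0.20, and 6 of 12 arrays correlated best with one of their own number, which does not settle it. Signal over background limits Epha1, Plxnb3 and Robo3, which lay below the low-level mark in every group.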
